A study of Mus musculus with 2 samples.

Results

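Autophagy and lysosome genes of CD8+ T cells, naive or activated, were studied as a set of 47 named genes, 24 of autophagy and 23 of the lysosome. Every probe set whose platform annotation named 1 of these genes and no other was taken, which gave 113 of the 34945 probe sets with a single symbol and 47 of 18193 genes. The cells came from mice transgenic for the pmel-1 T cell receptor, which recognises a melanocyte antigen, so that both groups carried the same transgenic receptor. Naive cells were compared with proliferating cells 72 h after activation. RNA of 4 independent experiments was pooled for each of the 2 Affymetrix whole-genome mouse arrays, 1 per group, and so no spread between replicates can be given and nothing was tested. The age of the mice, the organ, the purification and the way of activation do not appear in the descriptions at hand. The series' design text concerns nucleoside synthesis and salvage, and states no question about autophagy.

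Autophagy carries cytoplasm to the lysosome for breakdown. A kinase complex around ULK1 starts the process, a class III PI3 kinase complex marks the forming membrane with PI3P, and 2 linked conjugation reactions attach proteins of the ATG8 family (LC3 and GABARAP) to that membrane, where they bind cargo receptors. Lysosomes then degrade the content with cathepsins and glycosidases at the low pH that a proton pump maintains, and the transcription factor TFEB drives many of the genes for both. In T cells, autophagy supports survival and metabolism, and the cytotoxic granule of a CD8+ T cell is a modified lysosome.

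The arrays carried the transcripts that define CD8+ T cells. Cd8a had an intensity of 6020.4 in naive and 4860.0 in activated cells, Cd3e at 3035 and 2724, and the helper cell marker Cd4 at 45.1 and 50.5. Of the 5 CD8 and CD3 genes listed only Cd8b1, at 7725 and 3554 (2.17-fold lower), passed the size rule given below, and the 5 probe sets of Cd8a ranged in log2 ratio from -1.39 to -0.31. With the median over these probe sets (-0.89), or under quantile (-0.63) or loess scaling (-0.53), Cd8a passed as lower too. Activation markers separated the arrays, with Il2ra at 28.1 and 1492, Mki67 at 212 and 3080 (14.5-fold) and Gzmb at 282 and 10896. Intensities are model-based values on a linear scale, and depend on the probes as well as on the transcript, so levels of different genes were not set against each other. In pooled bulk RNA, fewer cells of a type and less RNA per cell cannot be told apart.

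A gene was called higher or lower when its brightest probe set differed at least 1.4-fold, with values under 100 raised to 100, and by more than 100 units. The log2 ratio of activated over naive was formed where at least 1 value reached 100, as it did for all 47 members and for 9842 genes in all. By this rule 16 members (34.0%) were lower in activated cells and 7 (14.9%) higher. Among all measured genes 20.6% were lower and 23.7% higher. Counts of the functional groups and lists below are to be read beside these shares. Apart, 8 of 24 autophagy genes (33.3%) were lower and 3 (12.5%) higher, and 8 of 23 lysosome genes (34.8%) were lower and 4 (17.4%) higher. The log2 ratio lay below 0 for 18 autophagy genes and 17 lysosome genes, 74.5% of the members, against 49.3% of all genes. Median log2 ratios were -0.34 for autophagy and -0.24 for lysosome genes, beside 0.01 for all genes. At a minimum of 2-fold, 5 of the 47 members were lower and 4 higher, where 9.19% of all genes were lower and 12.1% higher. At this minimum the share of lower members was close to that of all genes. The 5 were Ulk2, Ctss, Ctsw, Psap and Npc2, and the 4 were Gabarapl1, Gla, Gusb and Atp6v1a. Between probe sets of 1 gene the log2 ratio had an SD of 0.47 over 4292 genes and 0.36 over the 23 members with several measured probe sets. The minimum of 1.4-fold is barely larger than that spread, so ratios near it are weakly supported by 1 probe set. Just inside it lay Lamp2 (1.42-fold) and Atg13 (1.43-fold). Just outside lay Atg14 (at least 1.49-fold, with the activated value under 100) and Ulk1 (1.42-fold), both for a difference under 100 units, and Ctsc (1.34-fold).

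**Figure D1:**
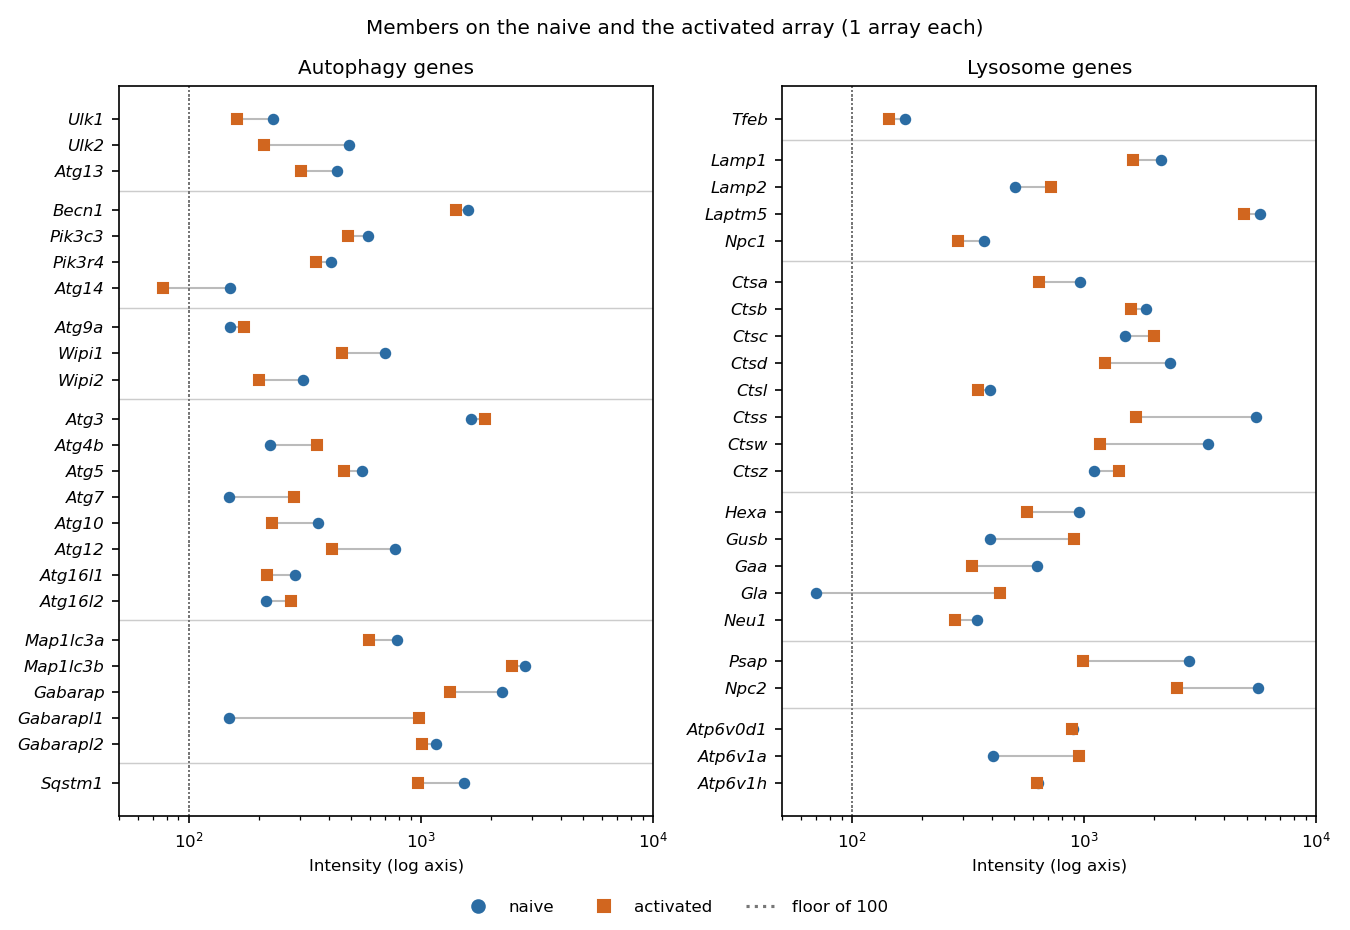
Intensity of each member by its brightest probe set in naive (blue circles) and activated cells (orange squares), 1 array per group, on a log axis, with grey lines between functional groups and the floor of 100 dotted. Most squares lie left of their circles, while Gabarapl1, Gla, Gusb and Atp6v1a show the widest shifts to the right.

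Because TFEB acts through a short palindrome in promoters, the starts of the members were searched for the core of that element. RefSeq promoter windows of assembly GRCm38.p6, each 300 bases long with 250 before and 50 after the annotated start, were at hand for 38 of the 47 members. The core TCACGTGA, which reads the same on both strands, stood in 6 of these 38 genes (15.8%), against 1.12% of 27025 genes in the table. Of the 6, 5 were among 19 lysosome genes and 1, Atg3, among 19 autophagy genes. The E-box CACGTG, which is contained in the core, stood in 12 of 38 members (31.6%) and in 8.09% of all genes. The forkhead element GTAAACA, searched with its reverse complement TGTTTAC, was found in 0 of the 38 member genes and in 4.05% of all. Among 102 other genes of the pathway with a window, 8 (7.84%) held the core and 25 (24.5%) the E-box. The core was searched because TFEB drives many genes of these kinds, so its larger share among them is no separate finding.

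The promoter stretches around the core are shown for the 6 genes, since they carry the same letters beside opposite ratios. They lie at chr16:45158697-45158824 (plus strand, Atg3), chr8:105566061-105566128 (minus, Atp6v0d1), chr16:44139324-44139451 (minus, Atp6v1a), chr2:164833700-164833772 (plus, Ctsa), chr7:142387859-142387986 (minus, Ctsd) and chrX:134601166-134601255 (minus, Gla). Each runs 5′ to 3′ on the gene's strand, with the core in capitals.
Atg3: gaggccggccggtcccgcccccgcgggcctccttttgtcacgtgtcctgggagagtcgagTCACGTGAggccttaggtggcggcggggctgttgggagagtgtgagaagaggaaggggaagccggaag
Atp6v0d1: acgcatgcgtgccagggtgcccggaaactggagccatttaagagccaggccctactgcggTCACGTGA
Atp6v1a: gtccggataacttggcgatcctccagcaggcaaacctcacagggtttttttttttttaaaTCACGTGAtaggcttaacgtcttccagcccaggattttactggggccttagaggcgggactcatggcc
Ctsa: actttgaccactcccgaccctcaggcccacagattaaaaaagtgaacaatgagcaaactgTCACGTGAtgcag
Ctsd: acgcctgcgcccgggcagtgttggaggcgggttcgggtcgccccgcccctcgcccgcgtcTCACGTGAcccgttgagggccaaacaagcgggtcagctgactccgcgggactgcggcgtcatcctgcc
Gla: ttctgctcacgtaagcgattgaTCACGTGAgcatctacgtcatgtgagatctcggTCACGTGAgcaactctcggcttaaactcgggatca
The core began 72 bases before the start of Atg3, 4 before that of Atp6v0d1, 132 before that of Atp6v1a and 99 before that of Ctsd. Gla held it at 228 and 195 bases before its start, and Ctsa 13 bases before and, beyond the stretch shown, from base 5 of the transcript. The log2 ratios of these genes did not share a direction: Gla (at least 2.12) and Atp6v1a (1.23) were higher, Ctsd (-0.93) and Ctsa (-0.58) lower, while Atg3 (0.21) and Atp6v0d1 (-0.01) did not pass the rule. A match describes the letters in the window and does not show that a factor binds there.

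**Figure D2:**
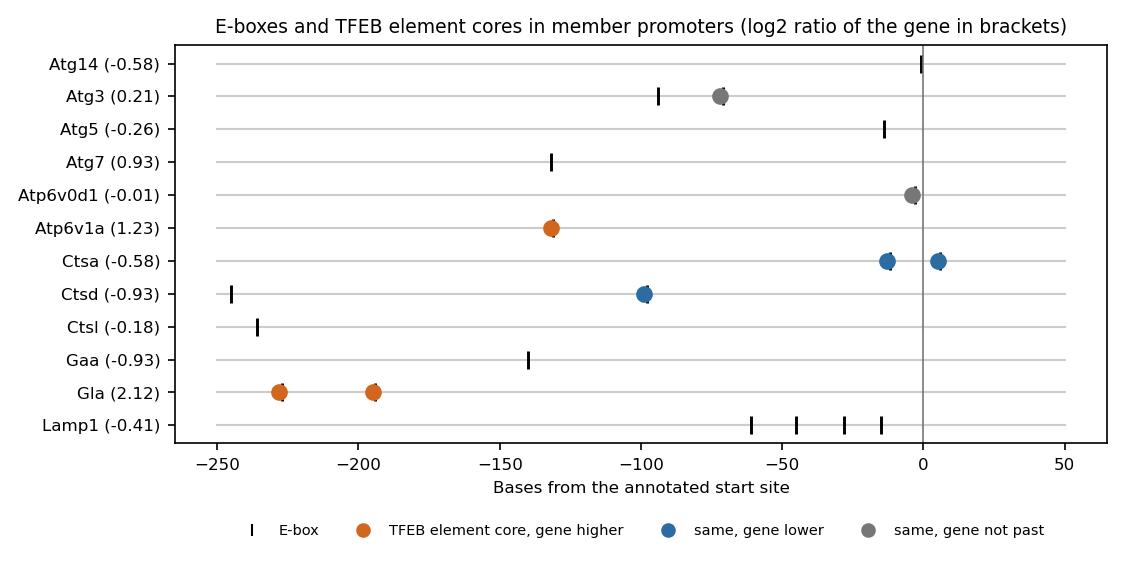
Places of E-boxes (black ticks) and of the longer TFEB element core (circles, orange for genes higher in activated cells, blue for lower, grey for neither) in the 12 member promoters that hold an E-box, in bases from the annotated start site. Circles of all 3 colours occur, with the log2 ratio of each gene in brackets.

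Transcripts for the kinase complex that starts autophagy were lower in activated cells for 2 of 3 members (66.7%, beside 20.6% of all genes). Ulk2, a kinase of that complex, was at 488 (naive) and 209.6 (activated), 2.33-fold lower. All 3 of its measured probe sets passed the rule in that direction, at 488 and 209.6, at 386 and 217, and at 215 and 71.0. Atg13, the scaffold that binds the kinase, was at 434 and 303 (1.43-fold lower), and its other 2 measured probe sets, at 209.9 and 172 and at 105 and 67.9, did not pass. The call of Atg13 ended with the median over its probe sets (a log2 ratio of -0.29). Ulk1 was at 229 and 161, a difference of 68 units. Each of the 3 genes was brighter on the naive array.

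The class III PI3 kinase complex differed less, with none of 4 members past the rule. Becn1, its Beclin 1 subunit, was at 1589 and 1418, and a second probe set at 1052 and 1006. Pik3c3, the lipid kinase itself, was at 589 and 486, and its regulatory partner Pik3r4 at 408 and 351. Atg14, which brings the complex to the site of autophagosome formation, was at 149 and 77.3. All 4 log2 ratios were below 0, from -0.58 to -0.16, and no pair of values met both the fold and the difference minimum.

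Of the proteins that supply or read the membrane, the PI3P-binding Wipi1 was at 701 and 455 (1.54-fold lower). Its second measured probe set agreed in direction, with a log2 ratio of -0.96. Wipi2, the relative that recruits the conjugation machinery, gave no settled direction. Its brightest probe set was at 309 and 200.1 (1.54-fold lower), but another was at 90.4 and 239 (at least 2.39-fold higher), and it was the only member with probe sets past the rule both ways. Atg9a, the transmembrane protein of autophagy vesicles, was at 150.2 and 173.

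The conjugation enzymes went both ways, with 2 of 8 higher, 2 lower and a median log2 ratio of -0.03. These shares, 25% each way, are close to those of all measured genes. Atg7, the activating enzyme shared by both conjugation reactions, was at 148 and 282 (1.90-fold higher). A second probe set of Atg7, at 79.8 and 114, did not pass. The call did not hold at a difference minimum of 200 or with the median over both. Atg4b, the protease that trims ATG8 proteins, was at 224 and 356 (1.59-fold higher), while its other measured probe set, at 254 and 215, pointed the opposite way. Atg12, the small protein that is joined to ATG5, was at 773 and 412 (1.88-fold lower), and its 3 probe sets ranged from -0.91 to -0.33. Atg10, the enzyme that joins ATG12 to ATG5, was at 358 and 227 (1.58-fold lower) by 1 probe set. The remaining 4 did not pass: Atg3, which loads ATG8 proteins onto lipid, was at 1641 and 1892, and Atg5 at 557 and 465. Further probe sets of Atg5 gave log2 ratios of 0.01 and 0.13, on the other side of 0. Atg16l1, which places the ATG12-ATG5 pair on the membrane, was at 287 and 216, and its relative Atg16l2 at 215 and 274.

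Within the ATG8 family 1 gene stood far from the other 4. Gabarapl1 was at 148 (naive) and 982 (activated), 6.62-fold higher, the highest ratio among members above 100 on both arrays (that of Gla, given below, is a lower bound). Its second probe set, at 55.04 and 509 (at least 5.09-fold), pointed the same way. Gabarap, a close relative, was instead at 2234 and 1326 (1.68-fold lower). Map1lc3b, the LC3 gene most used as an autophagy marker, was at 2788 and 2457 by its brightest probe set and did not pass. Its other 2 measured probe sets did, at 2099 and 1301 (1.61-fold lower) and at 1206 and 752 (1.60-fold lower). Map1lc3a was at 787 and 594, and Gabarapl2 at 1157 and 1008. Neither passed, but Map1lc3a did as lower under quantile (-0.51) and loess scaling (-0.49). Leaving Gabarapl1 aside, the brightest probe set of each family member was dimmer on the activated array.

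Sqstm1, a cargo receptor that is itself degraded by autophagy, was at 1529 and 969 (1.58-fold lower). These are transcript levels, and neither the flow through autophagy nor the lipid-bound form of LC3 was measured.

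Tfeb, the factor named for the promoter element above, was at 169 and 144, a difference of 24.1 units that did not pass. Its relatives and the nutrient-sensing proteins of the lysosome surface, which hold mTORC1 there, had a median log2 ratio of 0.08. Of the 15 with a ratio, 3 (20%) were higher and 2 (13.3%) lower, beside 23.7% and 20.6% of all genes. Fnip1 and Rraga, parts of that sensing system, were 1.67-fold and 1.71-fold higher, and Flcn, the partner of Fnip1, 1.52-fold lower by its brightest probe set. The call of Flcn ended with the median over its 3 probe sets (-0.40) and without probe sets ending in _x_at or _s_at (-0.22). Mtor was at 434.2 and 433.7. Lamtor2, a subunit of the complex that anchors the sensors, was 1.48-fold lower, and Lamtor3 was at 946 and 957. Of the relatives of Tfeb, Tfe3 was at 173 and 212, and Mitf and Tfec were under 100 on both arrays.

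Lysosomal membrane proteins included the only member of that group past the rule, Lamp2, at 505 and 716 (1.42-fold higher). LAMP2 is a major coat protein of the lysosomal membrane that is also used in chaperone-mediated autophagy. Its 4 probe sets gave log2 ratios from 0.50 to 0.65, and 3 of them passed. The call did not hold under other scalings of the arrays, with log2 ratios of 0.46 by median, 0.39 by quantile and 0.42 by loess scaling. Lamp1, the other coat protein, which also marks degranulation at the cell surface, was at 2147 and 1615 and did not pass. Laptm5, a lysosomal protein of blood cells that promotes degradation of T cell receptor chains, was at 5726 and 4860.1, and its 4 measured probe sets ranged from -0.72 to -0.14. Npc1, the cholesterol exporter of the lysosomal membrane, was at 369 and 286. The LAMP pair thus had ratios on opposite sides of 0, although that of Lamp1 (-0.41) did not pass the rule.

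Cathepsins, the proteases of the lysosome, were lower for 4 of 8 (50%) and higher for none, beside 20.6% and 23.7% of all genes. Ctss, the cysteine protease best known for cutting the invariant chain in antigen-presenting cells, was at 5486 and 1663 (3.30-fold lower). That was the lowest ratio of the 47 members by their brightest probe sets. Ctsw, a cathepsin of cytotoxic lymphocytes, was at 3399 and 1168 (2.91-fold lower). Ctsd, the aspartic protease, was at 2329 and 1224 (1.90-fold lower). Ctsa, which protects neuraminidase 1, was at 958 and 639 (1.498-fold lower). Each of these 4 rested on 1 measured probe set.

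The other 4 cathepsins stayed inside the rule by their brightest probe sets. Ctsc, which activates granzymes, was at 1497 and 2001 (1.34-fold), brighter on the activated array. Ctsz, a carboxypeptidase, was at 1105 and 1411, and its other 2 probe sets passed the rule upwards with log2 ratios of 0.51 and 0.78. Ctsb was at 1846 and 1591, with a second probe set at 978 and 981, and Ctsl at 392 and 347. Over the brightest probe sets of the 8 cathepsins the log2 ratios ran from -1.72 to 0.42. Among cathepsins outside the set, Ctso was 3.91-fold lower and Ctsh at least 3.23-fold lower. The second measured probe set of Ctsh had a log2 ratio of -0.39, inside the fold minimum. Ctse had a probe set 1.64-fold higher and another with a log2 ratio of -1.69, and so gave no settled direction. The cystatins, which inhibit cathepsins, were nearer to 0, with Cst7 at 1459 and 1262 and Cst3 at 1508 and 1250.4.

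**Figure D3:**
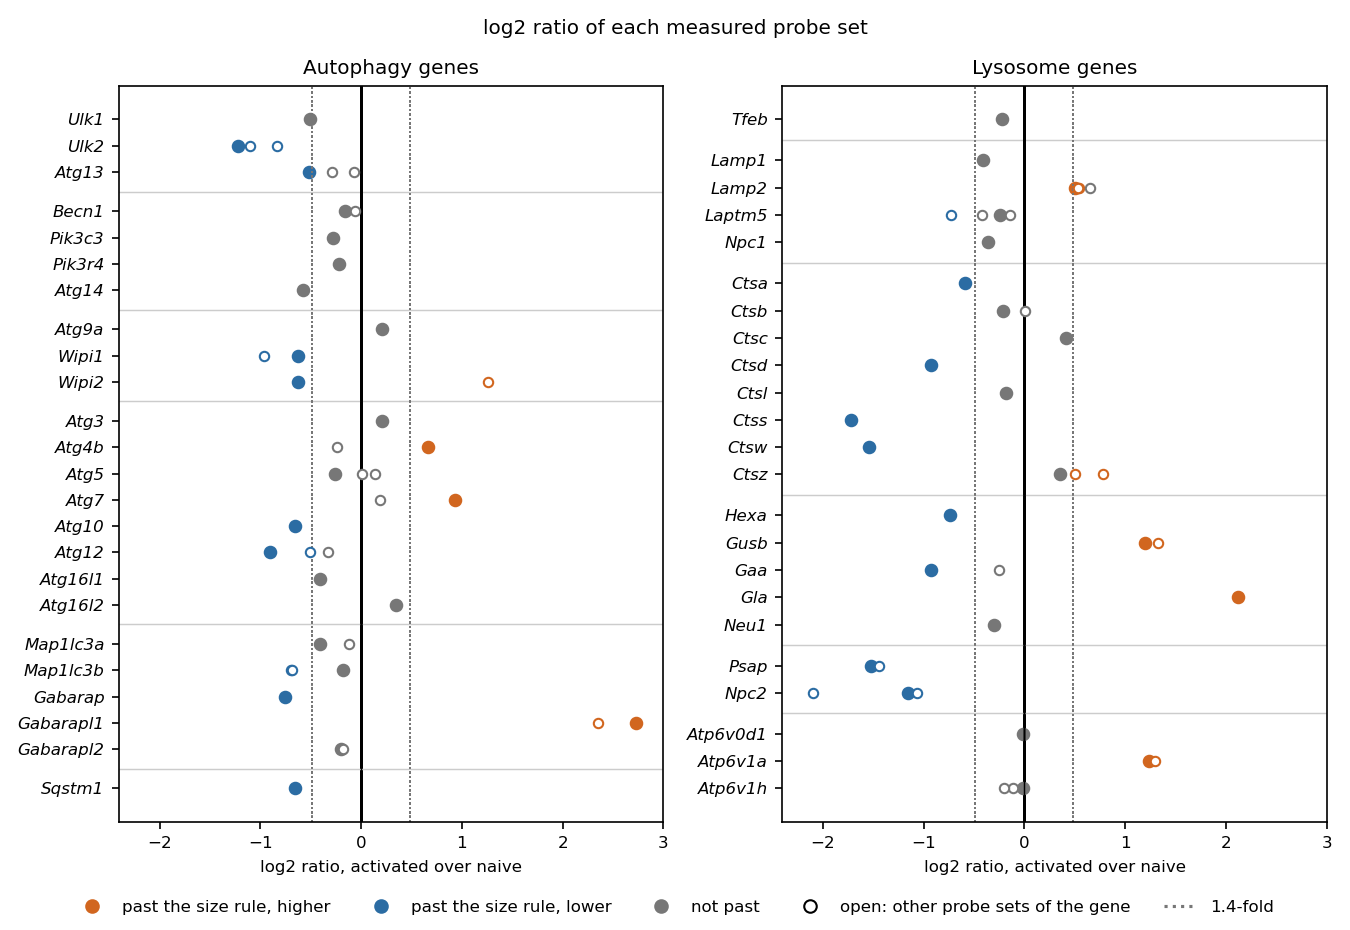
log2 ratio of activated over naive for each of the 82 member probe sets with a value of at least 100 on either array, filled for the probe set that represents the gene and open for the others, orange or blue where past the size rule and grey where not, with 1.4-fold dotted. Ratios are lower bounds where 1 array lay under 100, as for Gla. Open and filled points of Wipi2, Atg4b, Atg5 and Ctsb fall on opposite sides of 0. Those of Ulk2, Gabarapl1, Gusb, Psap, Npc2 and Atp6v1a cluster on 1 side.

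Transcripts of antigen-presenting cells were more abundant on the naive array, beside the cathepsin values. Of the 10 B cell and antigen presentation markers on the array, 9 were measured and 7 were lower in activated cells. The summed intensity of the 10 was 14447 on the naive and 4041 on the activated array. The sums given here add values of unlike probes, also those under 100, and do not measure the share of a cell type. The value of Ighm, at 4990 and 2968 (1.68-fold lower), weighed most in this sum on each array. The 7 measured probe sets of Ighm ranged in log2 ratio from -4.71 to -0.75. The class II invariant chain gene Cd74 was at 3003 and 405, and the immunoglobulin joining chain gene Jchain at 1768 and 45.3. The class II gene H2-Aa was at 2007 and 83.0 by its brightest probe set. Its 4 measured probe sets ranged in log2 ratio from -4.33 to -0.03, so not all showed a difference. Pax5, a defining B cell factor, was under 100 on both arrays (44.7 and 56.1). Of 13 macrophage and monocyte markers, 4 were measured and 3 were lower, with a sum of 1738 and 1011. Mpeg1 was at 293 and 8.22 and Lyz2 at 173 and 21.8. Csf1r was at 642 and 345, but had a log2 ratio of only -0.20 by its second measured probe set. The fourth, C1qb, was at 214 and 238, while Adgre1, Cd14, Cd68, Itgam and C1qa were under 100 on both. Only 1 of 6 dendritic cell markers (Itgax, 115 and 27.6) and 1 of 5 neutrophil markers (Mpo, 98.0 and 124) reached 100 on either array, and neither passed the rule. Of 2 NK cell markers Klra8 (242 and 29.9) was lower, and Ncr1 (54.7 and 27.8) was under 100 on both arrays. Among 5 erythroid and platelet markers 1 passed the rule, the beta-globin gene Hbb-b2, which has near-identical neighbours. Its values were 6852 (naive) and 1 (activated), at least 68.5-fold lower. A second probe set of Hbb-b2 did not pass (-0.18), and the call ended without probe sets ending in _x_at or _s_at. The part of such cells in the values of Ctss, Psap, Npc2 and the other lysosome genes was not tested.

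**Figure D4:**
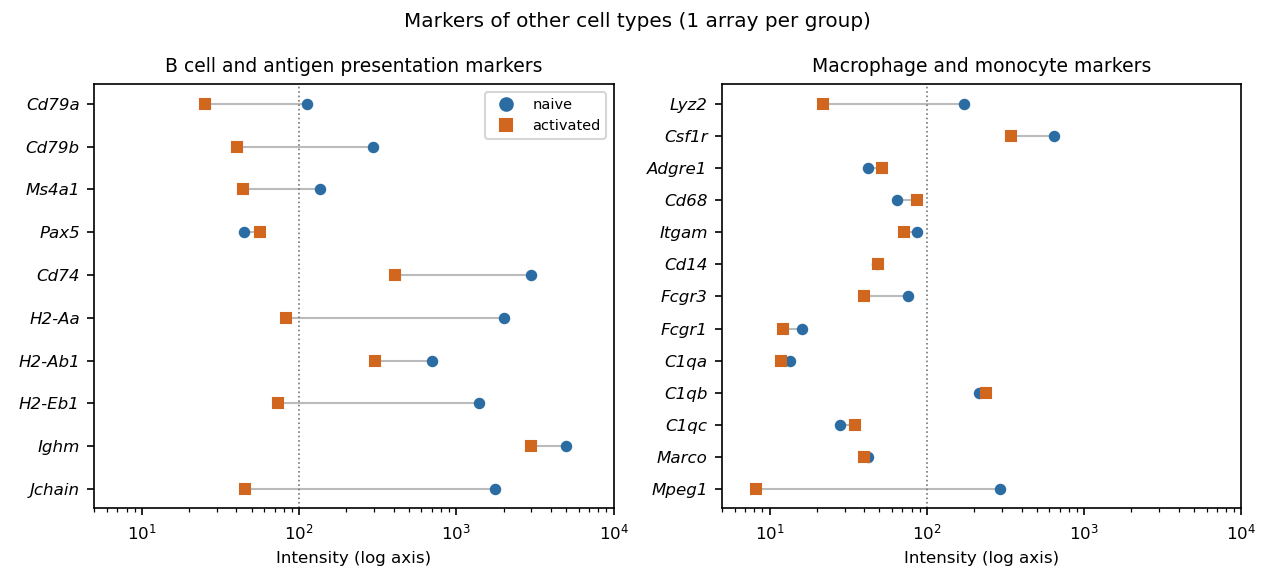
Intensity of each marker of B cells and antigen presentation (left) and of macrophages and monocytes (right) on the naive (blue circles) and activated (orange squares) array, on a log axis, with the floor of 100 dotted. Most class II and B cell markers lie higher on the naive array, and 9 of 13 macrophage markers lie under 100 on both.

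Glycosidases, which remove sugars from glycolipids, glycoproteins and glycogen, split into 2 higher and 2 lower of 5. These shares, 40% each way in a small group, stand beside 23.7% higher and 20.6% lower among all genes. Gla, alpha-galactosidase A, was at 70.0 (naive) and 434 (activated), at least 4.34-fold higher, by the only 1 of its 3 probe sets that reached 100. Gusb, beta-glucuronidase, was at 393 and 902 (2.30-fold higher), and its second probe set, at 189 and 473, passed as well. In the other direction, Gaa, which degrades glycogen, was at 624 and 328 (1.90-fold lower), although its second probe set, at 226 and 189, did not pass and gave -0.26 on the log2 scale once the brightest, an _x_at probe set, was left out. Hexa, the alpha subunit of beta-hexosaminidase, was at 946 and 567 (1.67-fold lower), and Neu1, neuraminidase 1, at 343 and 278. Neu1 and its protector Ctsa were both dimmer on the activated array.

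The 2 small lipid-handling proteins of the lysosome were both lower. Psap, the precursor of the saposins that present sphingolipids to glycosidases, was at 2836 and 985 (2.88-fold lower), and its second probe set at 2424 and 893 (2.71-fold lower). Npc2, which hands cholesterol to NPC1, was at 5577 and 2501 (2.23-fold lower). All 3 measured probe sets of Npc2 passed, and 1 of them, at 428 and 90.9, was at least 4.28-fold lower. Npc1, its partner in the membrane, differed by 82.4 units only.

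The proton pump was higher in 1 of its 3 members (33.3%, beside 23.7% of all genes). Atp6v1a, the catalytic subunit of the pump's cytosolic part, was at 402 and 946 (2.35-fold higher), and its second probe set, at 385 and 943, gave 2.45-fold. Atp6v0d1, of the membrane part, was at 890.4 and 884, and Atp6v1h, a regulatory subunit, at 630.5 and 627, both with a log2 ratio of -0.01. Of 12 further pump subunits with a ratio, 1 was higher (8.33%) and 2 were lower (16.7%), at a median of -0.09. Atp6v0b was 1.70-fold higher, Atp6v0a2 1.67-fold lower and Atp6v1d 1.42-fold lower. The 3 measured probe sets ranged in log2 ratio from 0.34 to 0.76 for Atp6v0b and from -0.74 to -0.29 for Atp6v0a2. Atp6v0e (1735 and 1715) and Atp6ap2 (2811 and 2688) were among those nearest to 0. The ratio of Atp6v1a was larger than that of any other measured pump subunit listed.

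The remaining genes of the pathway were read from lists that do not overlap the members. Of 34 measured other autophagy genes, 9 (26.5%) were lower and 4 (11.8%) higher, with a median log2 ratio of -0.27. Of 72 measured other lysosome genes, 19 (26.4%) were lower and 9 (12.5%) higher, with a median of -0.13. Both shares of lower genes were nearer to the 20.6% of all genes than those of the members. Both shares of higher genes were under the 23.7% of all genes, as were those of the members. The log2 ratio lay below 0 for 79.4% of the other autophagy genes, beside 75% of the autophagy members. For the other lysosome genes this share was 58.3%, beside 73.9% of the lysosome members.

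In autophagy initiation and lipid transfer, Uvrag, a partner of Beclin 1, was 1.97-fold lower, Rb1cc1, the large scaffold of the ULK complex, 1.88-fold lower and the kinase gene Ulk3 1.79-fold lower. Tmem41b, a lipid scramblase needed for autophagosome formation, was 2.65-fold higher, and its 5 measured probe sets ranged from 0.99 to 1.48. Wdr45b (742 and 725) and Wdr45 (415 and 373) were nearest to 0. Tecpr1, a lysosomal tether, was 3.14-fold lower, whereas the ATG4 relatives Atg4a (511 and 399.5) and Atg4d (172 and 179) did not pass.

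Among selective autophagy receptors, which link cargo to ATG8 proteins, Bnip3, a mitochondrial receptor, was at 47.9 and 1193 (at least 11.9-fold higher) by 1 measured probe set. Nbr1, a receptor related to Sqstm1, was at 1002 and 508 (1.97-fold lower), and Calcoco1 at least 2.07-fold lower. Tollip (593 and 565) and Tax1bp1 (1291 and 1175) did not pass. In the fusion of autophagosomes with lysosomes, the SNARE gene Stx17 was 1.94-fold lower, the tethering subunits Vps16 and Vps39 were 1.45-fold and 1.44-fold lower, and the SNARE gene Vamp7 was 1.70-fold higher. Vamp8 (1488 and 1593) and Rab7 (1264 and 1172) did not pass.

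Lysosomal hydrolases outside the set were lower for 7 of 24 (29.2%) and higher for 3 (12.5%), with a median log2 ratio of -0.26. Of all measured genes 20.6% were lower and 23.7% higher. Acp5, an acid phosphatase, was at 2194 and 239.9 (9.14-fold lower), and Lipa, the acid lipase, at 1261 and 391 (3.22-fold lower). Idua was at least 2.88-fold lower by its brightest probe set, but had a log2 ratio of -0.25 by its second. Ppt1, a thioesterase, was at 456 and 1078 (2.37-fold higher). Manba (271 and 273) and Aga (502 and 523) were nearest to 0. Of the membrane and sorting genes, 6 of 15 (40%) were lower and 1 (6.67%) higher. Gnptab, which makes the mannose 6-phosphate tag that sends hydrolases to the lysosome, was at 836 and 1714 (2.05-fold higher). Laptm4b was 2.597-fold lower, the adaptor gene Gga3 2.14-fold lower and Cln3 2.11-fold lower. The second measured probe set of Cln3 had a log2 ratio of -0.43, inside the fold minimum. Scarb2 (609 and 561) and Gga1 (110 and 66.3) did not pass.

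**Figure D5:**
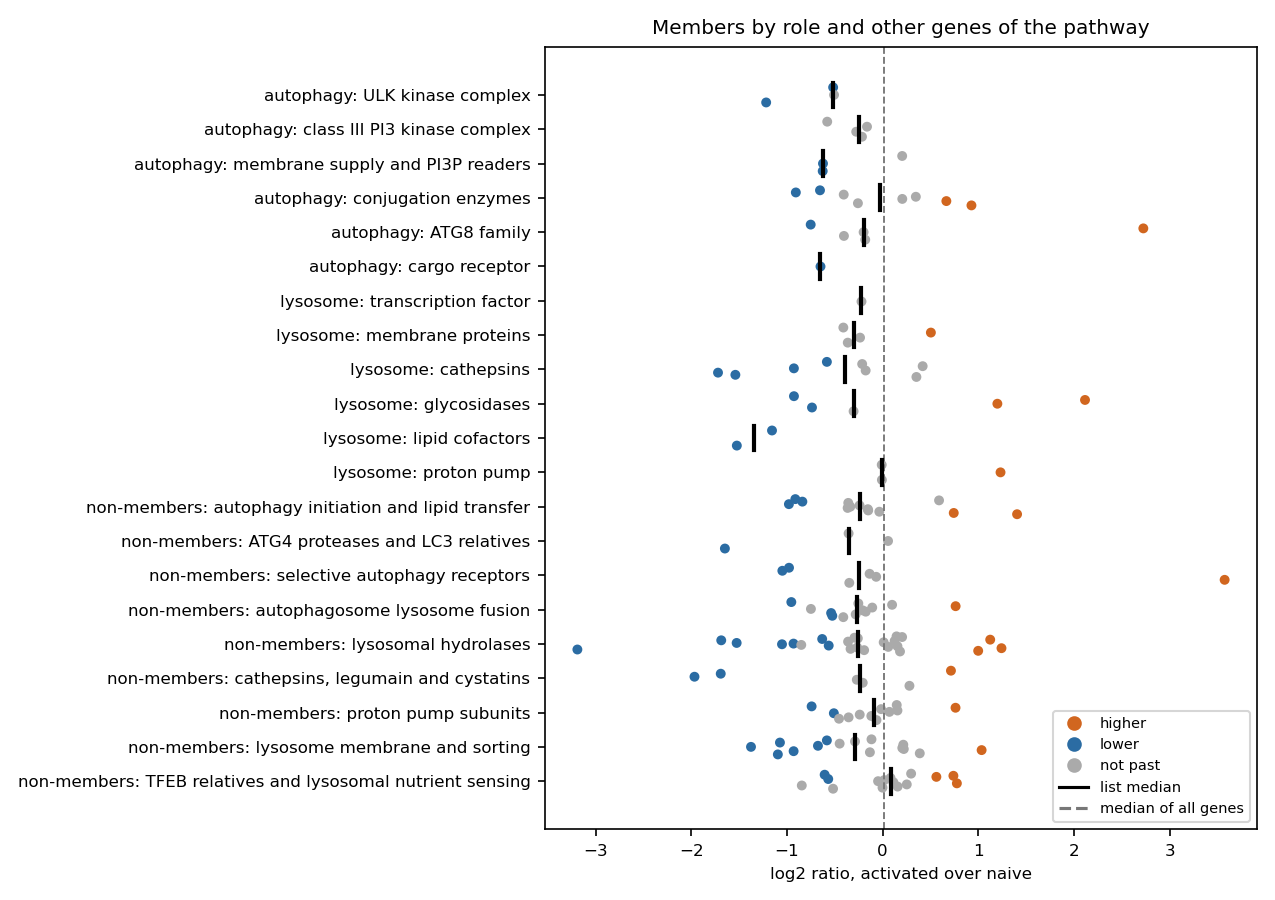
log2 ratio of activated over naive for each measured member by functional group (upper 12 rows) and for other genes of the pathway (lower 9 rows), orange for higher, blue for lower and grey for not past the size rule, with list medians as black bars and the median of all genes dashed at 0.01. Most bars lie left of the dashed line, while Gabarapl1 in the ATG8 family, Gla among glycosidases and Bnip3 among receptors lie far to the right.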

How the data were processed

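Intensities were compared for 2 pooled RNA samples on 1 array each. The authors deposited 1 expression intensity per probe set, computed with the difference model of dChip and normalized by its invariant set method, per the series' design text, with no dChip version stated. The present calls of GCOS 1.3, a tool named in the submitters' processing notes, were not used here, nor were the confidence bounds of the study's own rule. Values near background carry little information, since 57.3% of 45037 probe sets lay under 100 on both arrays, and the number of arrays limits precision. The 64 controls were left out.

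Probe sets were named from the platform annotation. The 9160 unnamed probe sets and the 932 with several symbols named no gene. All 113 member probe sets matched RefSeq by Entrez identifier, with 0 symbols changed. The probe set with the highest mean of both arrays represented a gene, whatever its ratio. The size rule used a floor of 100, a fold minimum of 1.4 and a difference above 100, and where 1 value lay under the floor the fold is a lower bound. All members were named, and in each other list up to 4 genes with the largest ratios past the rule and up to 2 nearest to 0. Of the 133 other pathway genes, 12 were not analysed here. Other genes, such as Cd74 and H2-Aa, were chosen after their values were seen. The members and lists were chosen with earlier results of these data known. The ratio rule was tried on simulated data in which only bright genes were changed, each by at least 2-fold. The simulated noise was smaller than the spread between probe sets here. That trial therefore says nothing on calls near 1.4-fold or on dim genes. Motifs were searched as exact matches in RefSeq promoters, and protein sequences were not used here. Calculations used Python 3.11.15, pandas 2.3.3, numpy 2.4.6 and statsmodels 0.14.6.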

Additional observations from a re-analysis of the deposited data

How the results depend on the processing

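Of 23 members past the size rule, 9 remained past it in the same direction under all 10 alternatives: Ulk2, Gabarapl1, Ctss, Ctsw, Gusb, Gla, Psap, Npc2 and Atp6v1a. Leaving aside the fold minimum of 2, the number was 15. A fold minimum of 2 left 1 autophagy gene higher and 1 lower, and 4 lysosome genes lower. A difference minimum of 200 left 1 autophagy gene higher and 5 lower. With the median over the probe sets of a gene, 1 autophagy gene was higher, Wipi2 turned to a log2 ratio of 0.31 and Ctse to -0.49, and without probe sets ending in _x_at or _s_at Ctse was at -1.69, because other probe sets then stood for the gene. Quantile scaling moved the lysosome median to -0.34. The counts of higher and of lower autophagy and lysosome genes and their 2 medians were recomputed. They stayed within 1.5 times (counts) or 0.1 (medians) under every other alternative, namely floors of 50 or 200, a difference minimum of 50, median or loess scaling, and leaving out _x_at and _s_at probe sets. Counts and medians of the smaller lists were not recomputed. Some members gained a call as lower: Ulk1 and Atg14 at a difference minimum of 50, and Map1lc3a under quantile and loess scaling. Laptm5 did so under quantile scaling (-0.58) and Map1lc3b with the median over probe sets (-0.68). Ctsz passed as higher with that median (0.51). Outside the members, Scarb2 became lower with that median (-0.52), and Cd3d (-0.49) and Cd3g (-0.57) under quantile scaling. Calls that ended outside the members included that of Vps39 under loess scaling (-0.48) and with the median over probe sets (-0.39). They also included Atp6v1d with that median (-0.44) and Calcoco1 at a floor of 200. A difference minimum of 200 ended those of Stx17, Vps39, Cln3, Idua, Calcoco1 and Lyz2. A fold minimum of 2 ended every call of a smaller fold. Among members, Wipi2 also lost its call under loess scaling (-0.57). No alternative leaving out a sample was possible with 1 array per group. Signal over background limits genes under 100, and 31 of the 113 member probe sets lay there on both arrays.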
